A study of Mus musculus with 10 samples.

Results

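The 8 genes described here, Ccr2, Cx3cr1, Csf1r, Csf3r, Lyz1, Lyz2, Cd14 and Fn1, are myeloid genes that mark monocyte-like conventional type 2 dendritic cells (cDC2) low in the adhesion molecule ESAM. They were taken by symbol, with the probe set of highest mean log2 intensity for each gene, and are 8 of 19938 measured genes. Each of the 8 is named by a single probe set.

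The samples were cDC2 sorted from mouse spleen, after collagenase digestion and enrichment of CD11c+ cells, and profiled on 10 microarrays in 4 groups. WT mice were left untreated (2 arrays) or received 200000000 sheep red blood cells (SRBC) by intraperitoneal injection and were analysed 24 hours later (3 arrays). CD11c-Cre+ Notch2f/f mice, called Notch2-11cKO, were likewise untreated (2 arrays) or given SRBC (3 arrays). In these mice Cre is driven by the CD11c promoter and cuts the floxed Notch2 alleles in cells that express CD11c, which include dendritic cells but also other CD11c+ cells. The labels used here do not give the age or sex of the mice, whether WT mice carried Cre or floxed alleles, or whether arrays of a group came from separate mice, so p-values measure only the spread between these arrays, which may be technical in part.

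As background, splenic cDC2 comprise ESAM-high cells, whose development needs Notch2 signalling, and ESAM-low cells, which share genes with monocytes. Among the 8 genes are receptors that draw monocytes to chemokines (Ccr2, Cx3cr1), receptors for growth factors of macrophages and granulocytes (Csf1r, Csf3r), the lipopolysaccharide co-receptor Cd14, the 2 mouse lysozymes, which cut bacterial cell walls (Lyz1, Lyz2), and the matrix glycoprotein fibronectin (Fn1). Notch receptors act in the nucleus through the DNA-binding protein RBPJ, and the factors PU.1 and C/EBP are known to drive many myeloid genes.

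The genes lie on several chromosomes (GRCm38.p6, RefSeq). Fn1 is on chromosome 1, from 71585473 to 71653280, and Csf3r on chromosome 4, from 126023441 to 126044975. Cx3cr1 and Ccr2 are both on chromosome 9, from 120048683 to 120068296 and from 124101918 to 124109140. Lyz2 and Lyz1 are neighbours on chromosome 10, from 117277541 to 117282272 and from 117287795 to 117292868, with 5522 bases and 0 annotated genes between them.

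Sequences upstream of an annotated start, from RefSeq (GRCm38.p6), were held for 5 of the 8 genes: Csf3r, Cx3cr1, Ccr2, Lyz1 and Lyz2. The upstream windows of both lysozymes are shown because these adjacent genes were high and low on the same groups of arrays. They are the 250 bases before each start, 5′ to 3′ on the gene's own (minus) strand, at chr10:117292869-117293118 for Lyz1 and chr10:117282273-117282522 for Lyz2. Capitals mark the stretch next to the start, 50 bases, that is identical in both.
Lyz1: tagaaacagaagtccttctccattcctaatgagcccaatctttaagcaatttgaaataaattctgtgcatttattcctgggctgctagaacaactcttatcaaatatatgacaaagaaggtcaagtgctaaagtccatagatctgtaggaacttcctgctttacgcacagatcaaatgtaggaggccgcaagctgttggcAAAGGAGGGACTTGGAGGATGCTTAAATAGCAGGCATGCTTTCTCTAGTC
Lyz2: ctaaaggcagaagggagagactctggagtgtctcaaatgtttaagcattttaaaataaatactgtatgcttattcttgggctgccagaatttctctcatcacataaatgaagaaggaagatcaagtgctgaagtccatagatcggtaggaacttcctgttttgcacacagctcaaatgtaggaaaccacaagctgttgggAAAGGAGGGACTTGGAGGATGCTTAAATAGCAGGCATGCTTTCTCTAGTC
Compared position by position without gaps, 152 of the 250 bases were identical (60.8%), with 50 of 50 next to the start and 102 of the 200 farther out (51%). A base gained or lost in 1 window lowers such a count, so it does not measure how far the windows have diverged. Lyz1 and Lyz2 are close copies of each other, so how far their probe sets measure the 2 transcripts separately was not tested.

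The window of Cx3cr1, whose product binds fractalkine, is shown because it held a match to the RBPJ core. It lies at chr9:120068297-120068546 on the minus strand, and capitals mark the match, which reads on the opposite strand.
Cx3cr1: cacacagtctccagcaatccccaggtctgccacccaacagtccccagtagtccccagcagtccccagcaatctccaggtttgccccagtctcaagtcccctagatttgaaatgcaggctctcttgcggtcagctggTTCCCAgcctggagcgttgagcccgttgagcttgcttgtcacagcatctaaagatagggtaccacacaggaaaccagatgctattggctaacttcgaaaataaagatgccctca
The motifs searched on both strands were TGGGAA for RBPJ, GAGGAA for PU.1 and TTGCNNAA for C/EBP, which occurred in 21.6%, 23.3% and 9.56% of all 32851 windows of this length. With the last base before the start counted as -1, the RBPJ match of Cx3cr1 spans -114 to -109, and Lyz2 had another from -54 to -49, which overlaps the first bases of the shared stretch. Lyz1 held 1 C/EBP match, from -209 to -202, Csf3r 1 PU.1 match, from -86 to -81, and Ccr2 none of the 3. The windows of Csf3r (126024409 to 126024658) and Ccr2 (124101933 to 124102182) lie inside the gene spans given above. They precede a start within the span, and sequence before the whole gene was not searched for these genes. A match is a string of letters and not a measured binding site.

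In sorted cDC2 of untreated mice all 8 genes rose in Notch2-11cKO relative to WT, from 2.04-fold (Csf3r) to 60.4-fold (Fn1). This comparison asks what loss of Notch2 in CD11c+ cells changes at steady state. Of all genes 2.95% were higher and 2.16% lower at the same threshold (limma, Benjamini-Hochberg adjusted p below 0.05 over 19938 genes), and 5.11% differed in either direction. The median log2 difference of the 8 was 3.13, beside -0.02 over all genes. Every Notch2-11cKO array lay above every WT array for each of the 8, which was so for 22% of all genes, with 26.8% lying wholly below. The 8 were chosen with earlier results of these data known. Their counts beside the shares of all genes are therefore a description and not a test of the list. In RNA of a sorted population, more cells of a type and more RNA per cell cannot be told apart.

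**Figure D1:**
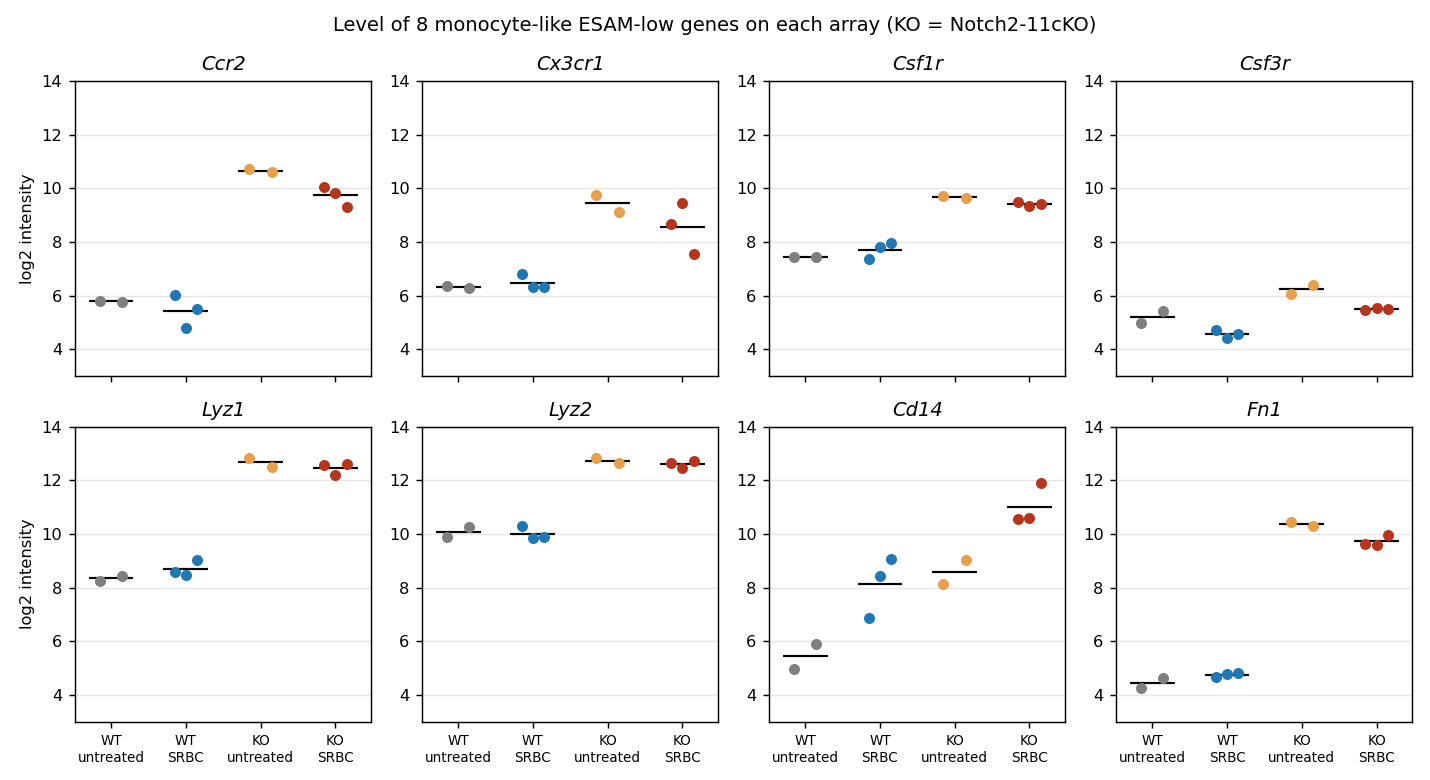
Log2 intensity of each gene (vertical axis) on the 10 arrays by group (horizontal axis), with points for arrays and lines for group means. In 7 of the 8 panels each Notch2-11cKO array lies above each WT array whatever the treatment; in the Cd14 panel the WT SRBC and Notch2-11cKO untreated arrays overlap.

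Ccr2 encodes the receptor for CCL2, by which monocytes leave the bone marrow. Its log2 intensity was 5.81 and 5.77 on the untreated WT arrays and 10.72 and 10.60 on the untreated Notch2-11cKO arrays. After SRBC it was 6.03, 4.79 and 5.52 in WT and 10.06, 9.84 and 9.32 in Notch2-11cKO. All 5 knockout arrays stood far above all 5 WT arrays, and within the knockout the SRBC arrays were the lower ones. The log2 difference between genotypes was 4.87 ± 0.35 (SE) untreated (29.2-fold, limma adjusted p = 1.59e-05) and 4.29 ± 0.29 after SRBC (19.6-fold, limma adjusted p = 1.26e-05). These were the 9th and the 4th highest of 19938 differences.

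Cx3cr1 encodes the fractalkine receptor, which is high on patrolling monocytes and many tissue macrophages. Its log2 intensity was 6.38 and 6.28 in untreated WT, 9.77 and 9.13 in untreated Notch2-11cKO, 6.80, 6.33 and 6.32 in WT after SRBC, and 8.68, 9.47 and 7.56 in Notch2-11cKO after SRBC. WT arrays lay close together, while the SRBC-treated knockout arrays were spread widely (SD 0.96, n = 3), replicate 3 being the lowest. The genotypes differed by 3.12 ± 0.47 untreated (8.69-fold, limma adjusted p = 0.0024) and by 2.09 ± 0.39 after SRBC (4.26-fold, limma adjusted p = 0.00891).

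Csf1r is the receptor for the macrophage growth factors CSF1 and IL-34, and the gene lies on chromosome 18 from 61105572 to 61131139. Its log2 intensity was 7.43 and 7.46 in untreated WT and 9.71 and 9.65 in untreated Notch2-11cKO, and after SRBC 7.37, 7.82 and 7.95 in WT and 9.50, 9.34 and 9.44 in Notch2-11cKO. The genotypes separated without overlap, and the untreated knockout arrays were slightly above the treated ones. Its log2 difference was 2.24 ± 0.22 untreated (4.71-fold, limma adjusted p = 0.000126) and 1.71 ± 0.18 after SRBC (3.27-fold, limma adjusted p = 0.000189).

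Csf3r, the receptor for granulocyte colony-stimulating factor, showed the smallest genotype difference of the 8. Its log2 intensity was 4.99 and 5.43 in untreated WT, 6.06 and 6.41 in untreated Notch2-11cKO, 4.72, 4.41 and 4.59 in WT after SRBC and 5.47, 5.53 and 5.52 in Notch2-11cKO after SRBC. In each genotype the SRBC arrays lay below the untreated arrays, and in each treatment the knockout lay above WT. The difference was 1.03 ± 0.19 untreated (2.04-fold, limma adjusted p = 0.00841) and 0.93 ± 0.15 after SRBC (1.91-fold, limma adjusted p = 0.00447). The untreated call was lost without WT untreated replicate 1 (adjusted p = 0.109) or without Notch2-11cKO untreated replicate 2 (adjusted p = 0.0877).

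Lyz1 and Lyz2 encode the secreted lysozymes of mouse Paneth cells and of myeloid cells. Lyz1 log2 intensity was 8.25 and 8.43 in untreated WT, 12.82 and 12.51 in untreated Notch2-11cKO, 8.57, 8.48 and 9.04 in WT after SRBC, and 12.56, 12.18 and 12.62 in Notch2-11cKO after SRBC. Lyz2 log2 intensity was 9.87 and 10.24, 12.83 and 12.63, 10.30, 9.84 and 9.90, and 12.66, 12.44 and 12.71 in the same order of groups. For both genes the knockout arrays were high and tightly grouped whatever the treatment. On Notch2-11cKO untreated 1 the intensity of Lyz2 was 7296, beside an array maximum of 10036. Whether signal this near the top of the range narrowed the spread or the folds was not tested. The Lyz1 difference was 4.32 ± 0.23 untreated (20.0-fold, limma adjusted p = 2.21e-06) and 3.75 ± 0.19 after SRBC (13.5-fold, limma adjusted p = 9.3e-07). For Lyz2 it was 2.68 ± 0.20 (6.40-fold, limma adjusted p = 1.59e-05) and 2.59 ± 0.16 (6.02-fold, limma adjusted p = 7.53e-06).

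Cd14 hands lipopolysaccharide to the TLR4 complex, and its SD was the highest of the 8 in every group but Notch2-11cKO after SRBC, where that of Cx3cr1 was higher (chromosome 18, 36725064 to 36726815). Its log2 intensity was 4.98 and 5.90 in untreated WT, 8.14 and 9.02 in untreated Notch2-11cKO, 6.86, 8.42 and 9.08 in WT after SRBC, and 10.54, 10.60 and 11.91 in Notch2-11cKO after SRBC. The treated knockout arrays were highest, untreated WT lowest, and the other groups overlapped between them. The genotypes differed by 3.14 ± 0.66 untreated (8.84-fold, limma adjusted p = 0.0177) and by 2.90 ± 0.54 after SRBC (7.46-fold, limma adjusted p = 0.00919). The untreated call was lost when any of the 4 untreated arrays was left out: adjusted p was 0.181 and 0.0552 without WT untreated replicate 1 and 2, and 0.057 and 0.151 without Notch2-11cKO untreated replicate 1 and 2.

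Fn1 encodes fibronectin, which cells bind through integrins, CD44 and syndecans. Its log2 intensity was 4.26 and 4.63 in untreated WT and 10.45 and 10.28 in untreated Notch2-11cKO, and after SRBC 4.67, 4.79 and 4.81 in WT and 9.62, 9.57 and 9.97 in Notch2-11cKO. No other measured gene had a larger rise between genotypes, untreated (5.92 ± 0.21, 60.4-fold, limma adjusted p = 1.92e-07) or after SRBC (4.96 ± 0.17, 31.2-fold, limma adjusted p = 1.42e-07). The deposited values carry no detection call, so it was not tested whether the low WT values of Fn1, Csf3r, Ccr2 or Cd14 lie above background. On WT SRBC 2 the intensity of Ccr2 was 27.7, as was that of Fn1, beside an array median of 30.6. On WT untreated 1 that of Cd14 was 31.5, beside a median of 30.7. The folds are ratios of measured intensity.

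After SRBC all 8 genes were again higher in Notch2-11cKO than in WT, against 3.36% of all genes called higher, 1.96% called lower and 5.32% called in either direction. Every knockout array lay above every WT array for each of the 8 and for 9.96% of all genes (10.4% wholly below). The median log2 difference was 2.74, beside -0.02 over all genes. Here too the 8 were chosen with earlier results known, so the counts are a description. The untreated and SRBC comparisons share no arrays, but the spread in the fit is common to both. The order of the 8 was nearly the same in both treatments, with Fn1, Ccr2, Lyz1 and Cd14 on top and Csf1r and Csf3r at the bottom. Neighbours in that order often lay within each other's errors; for example, the untreated intervals of Cd14 (1.69 to 4.60) and Cx3cr1 (2.08 to 4.16) overlapped almost wholly. Those of Fn1 (5.45 to 6.38) and Lyz1 (3.83 to 4.82) did not overlap.

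**Figure D2:**
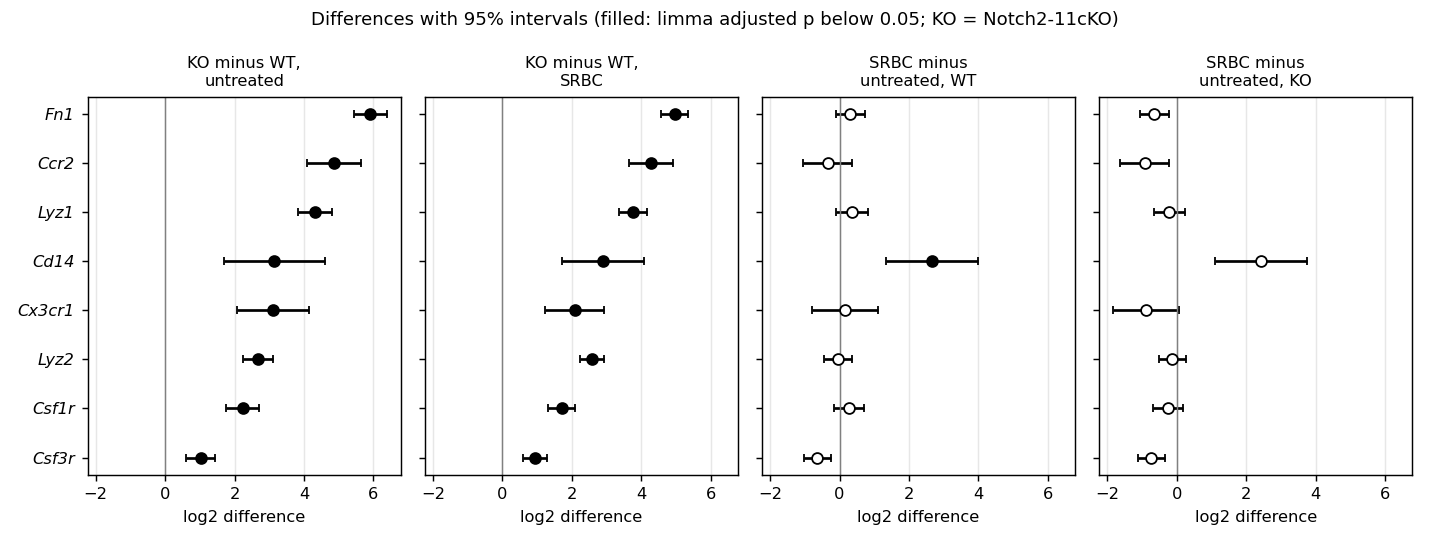
Log2 difference of each gene (horizontal axis) with its 95% limma confidence interval in 4 comparisons (panels), filled where adjusted p was below 0.05. All 8 are filled in both genotype panels, only Cd14 in the WT response panel and none in the Notch2-11cKO response panel.

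Each of the 8 had a smaller estimated difference with SRBC than between genotypes. In WT cDC2 only Cd14 rose among the 8, by 2.68 ± 0.60 on the log2 scale (6.40-fold, limma adjusted p = 0.034), where 1.82% of all genes were called higher, 1.97% lower and 3.79% in either direction. All 3 WT SRBC arrays lay above both untreated arrays for Cd14, Lyz1 and Fn1 (17.8% of all genes) and all lay below for Csf3r (15.7%). Csf3r had a log2 difference of -0.64 ± 0.17 that did not pass (limma adjusted p = 0.0697, 95% interval -1.02 to -0.26). The other 6 lay between -0.34 (Ccr2, 95% interval -1.05 to 0.37) and 0.36 (Lyz1, -0.09 to 0.81), with limma adjusted p from 0.432 to 0.948. The median of the 8 was 0.21, beside 0.02 over all genes.

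The Cd14 call in WT was lost without WT untreated replicate 1 (adjusted p = 0.315) or 2 (0.111) and without WT SRBC replicate 2 (0.0973) or 3 (0.102). Without WT SRBC replicate 1, Csf3r was called lower too (limma adjusted p = 0.0454), while calls over all genes rose from 756 to 1331.

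In Notch2-11cKO cDC2 none of the 8 passed after SRBC by limma, where 0.306% of all genes were called (0.14% higher, 0.166% lower). An unadjusted limma p below 0.05 was found for 4 of the 8, beside 10% of all genes. Cd14 showed a difference close to that in WT, 2.43 ± 0.60 (limma adjusted p = 0.138), with all 3 SRBC arrays above both untreated arrays (16.1% of all genes), and only 7 genes of 19938 had a higher difference. The remaining 7 had negative estimates, as did 43.8% of all genes. Ccr2 was at -0.92 ± 0.32 (adjusted p = 0.35), Cx3cr1 at -0.88 ± 0.43 (0.546), Csf3r at -0.73 ± 0.17 (0.123) and Fn1 at -0.64 ± 0.19 (0.237). Ccr2, Csf1r, Csf3r and Fn1 had every SRBC array below every untreated array, as did 12.2% of all genes. The Cx3cr1 estimate was -0.37 without Notch2-11cKO SRBC replicate 3, -0.56 without Notch2-11cKO untreated replicate 1 and -1.32 without Notch2-11cKO SRBC replicate 2. The lysozymes had small estimates, with Lyz1 at -0.21 (95% interval -0.66 to 0.24) and Lyz2 at -0.13 (-0.52 to 0.26). The median was -0.45, beside 0.03 over all genes. Without WT SRBC replicate 1, which enters this comparison only through the common spread, Cd14 was called (adjusted p = 0.0351). Calls over all genes then rose from 61 to 183.

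Whether the SRBC response differed between genotypes was tested with the interaction, the Notch2-11cKO response minus the WT response. None of the 8 passed by limma, beside 0.0201% of all genes (0.01% in each direction). An unadjusted limma p below 0.05 was found for 1 of the 8, beside 6.47% of all genes. It was Fn1, at -0.95 ± 0.27 (limma adjusted p = 0.453). The other estimates ran from -1.03 ± 0.61 (Cx3cr1, adjusted p = 0.88) through -0.57 (Ccr2), -0.57 (Lyz1) and -0.52 (Csf1r) to -0.24 (Cd14), -0.09 (Csf3r) and -0.09 (Lyz2). All 8 were below 0, as were 48.8% of all genes, so each estimated genotype difference was smaller after SRBC than untreated. The median was -0.55 beside 0.01 over all genes. The estimates of Cd14, Csf3r and Lyz2 changed sign in some alternatives. The untreated genotype difference enters the interaction, and the 8 were chosen with earlier results known, so their shared sign is a description. The Cx3cr1 estimate was -0.52 without Notch2-11cKO SRBC replicate 3, and that of Ccr2 -0.28 without WT SRBC replicate 1, -0.36 without Notch2-11cKO SRBC replicate 3 and -0.90 without WT SRBC replicate 2. The intervals were wide, from -2.12 to 1.63 for Cd14, so a difference in its response between genotypes was not resolved at this number of arrays.

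Arrays WT SRBC 1 and Notch2-11cKO SRBC 3 stood apart from the other arrays of their groups. Over all genes WT SRBC 1 correlated with the other 2 at r = 0.9712 and 0.9706, beside 0.9902 between those 2, and Notch2-11cKO SRBC 3 at 0.9785 and 0.9751, beside 0.9878. The 8 genes did not move together on them. WT SRBC 1 had the lowest Cd14 of its group (-1.26 from the group mean) with the highest Ccr2 (0.59) and Cx3cr1 (0.31). Notch2-11cKO SRBC 3 had the highest Cd14 (0.89) with the lowest Ccr2 (-0.42) and Cx3cr1 (-1.01). With both arrays left out, Cd14 (1.99, limma adjusted p = 0.0144) and Fn1 (-0.77, adjusted p = 0.0478) were called in the Notch2-11cKO response and Fn1 in the interaction (-1.12, adjusted p = 0.0325). Csf3r was then called lower in the WT response (-0.71, adjusted p = 0.0299), and all 8 genotype calls held in both treatments, that of Cd14 after SRBC at a smaller 1.83. Both arrays were picked from these data, and calls over all genes rose too without them. They rose from 61 to 398 in the Notch2-11cKO response, from 4 to 604 in the interaction and from 756 to 2300 in the WT response. The interaction was then -0.37 for Cx3cr1 and -0.07 for Ccr2.

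**Figure D3:**
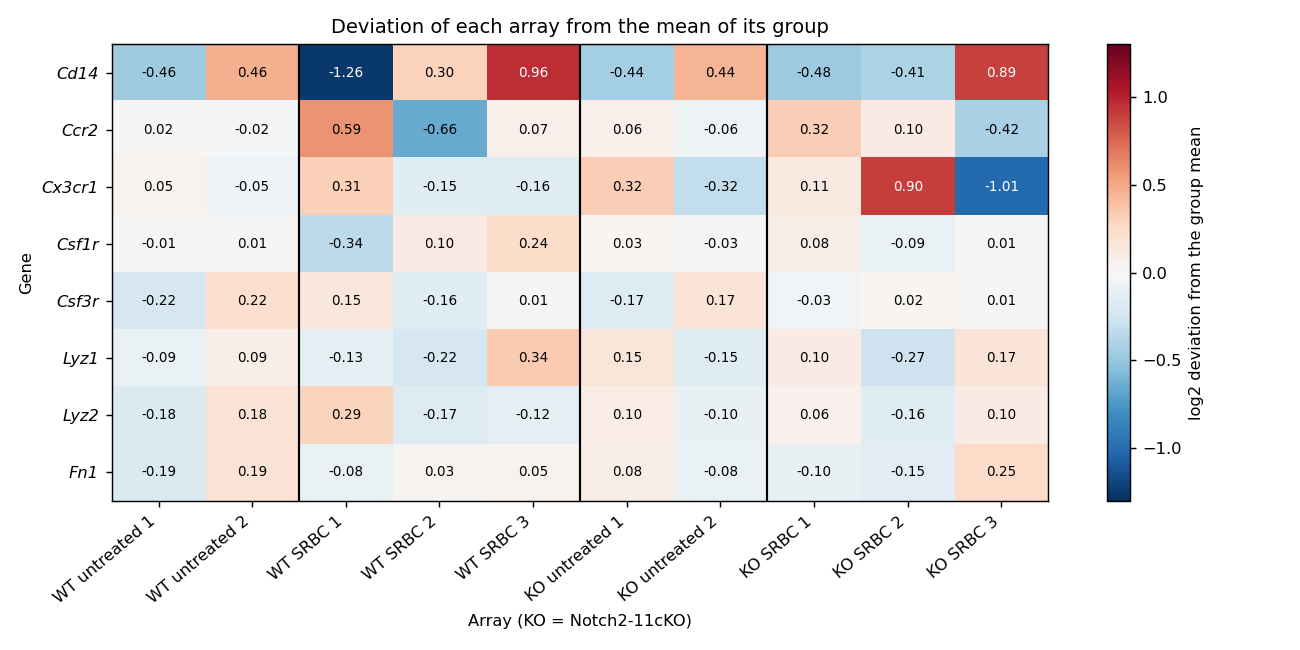
Deviation of each array from the mean of its group, in log2 units (colour and printed values), for the 8 genes (rows) on the 10 arrays (columns). Cd14 runs opposite to Ccr2 and Cx3cr1 on WT SRBC 1 (-1.26 against 0.59 and 0.31) and on Notch2-11cKO SRBC 3 (0.89 against -0.42 and -1.01).

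Notch2 itself had nearly the same log2 intensity in both genotypes, 8.11 and 8.14 in untreated WT and 8.37 and 8.17 in untreated Notch2-11cKO. The difference was 0.14 (limma adjusted p = 0.915) untreated and 0.35 (adjusted p = 0.455) after SRBC. Whether its probes lie in the deleted part was not tested, so these values do not check the genotype labels.

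Other genes known from ESAM-low cDC2, listed with results of these data known, were higher in the same groups as the 8. All 5 of 5 rose in Notch2-11cKO in both treatments: the C-type lectins Mgl2 (5.52 ± 0.33 untreated, limma adjusted p = 5.13e-06), Clec10a (5.0 ± 0.27, adjusted p = 2.82e-06) and Clec12a (3.92 ± 0.32, adjusted p = 4.04e-05), the scavenger receptor Cd36 (5.12 ± 0.37, adjusted p = 1.59e-05) and the lectin Cd209a (1.73 ± 0.23, adjusted p = 0.000921). After SRBC their differences were 3.51, 3.35, 3.06, 3.21 and 2.07. The response to SRBC in Notch2-11cKO was a fall of Cd209a (-1.49 ± 0.21, adjusted p = 0.019), Mgl2 (-1.84 ± 0.30, adjusted p = 0.0339) and Clec10a (-1.46 ± 0.25, adjusted p = 0.041). In WT Cd209a fell (-1.83 ± 0.21, adjusted p = 0.00112) and Cd36 rose (2.06 ± 0.34, adjusted p = 0.00725). The markers of ESAM-high cDC2 went the other way between genotypes, 5 of 6 being lower in untreated Notch2-11cKO and 4 of 6 after SRBC, led by Clec4a4 (-4.09 ± 0.35, adjusted p = 5.84e-05 untreated). In untreated mice the Notch target Dtx1 (-2.41 ± 0.33, adjusted p = 0.00122) and Esam (-1.84 ± 0.33, adjusted p = 0.00664) were lower as well.

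Of 5 genes listed as ligands of CCR2 or CX3CR1, 1 was higher in untreated Notch2-11cKO and 4 after SRBC. Ccl2, the main CCR2 ligand, rose by 3.82 ± 0.49 untreated (limma adjusted p = 0.000756) and 2.84 ± 0.40 after SRBC (adjusted p = 0.00152). After SRBC Ccl12 (1.88 ± 0.25, adjusted p = 0.00116) and Ccl7 (2.23 ± 0.39, adjusted p = 0.00625), which also bind CCR2, were higher too. So was Ccl8 (0.78 ± 0.12, adjusted p = 0.00256), which was dim, with a mean log2 of 3.31 in WT and 4.09 in Notch2-11cKO after SRBC. Whether mouse CCL8 acts through CCR2 was not tested. Cx3cl1, the CX3CR1 ligand, was not called between genotypes in either treatment (0.11, adjusted p = 0.908, and 0.35, adjusted p = 0.297). The groups with high Ccr2 thus also had high Ccl2, the receptor and a ligand of it in the same sorted population. In the responses to SRBC 0 of the 5 were called by limma, with 0 in WT and 4 in Notch2-11cKO at an unadjusted p below 0.05. Over all genes the share with an unadjusted limma p below 0.05 was 16.8% in the WT response and 10% in the Notch2-11cKO response. Between genotypes that share was 14.6% untreated and 17.4% after SRBC, in either direction.

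Of 10 other genes of ligands and receptors of the colony-stimulating factor system, 0 rose in Notch2-11cKO by limma (1 untreated and 2 after SRBC at an unadjusted p below 0.05), and only Kit, the stem cell factor receptor, fell (-2.27 ± 0.24 untreated, adjusted p = 0.000249, and -1.39 ± 0.20 after SRBC, adjusted p = 0.00177). Csf2rb2, a beta chain of the IL-3 receptor, was at 0.77 ± 0.29 between untreated genotypes (adjusted p = 0.215), an interval of 0.13 to 1.41 that overlaps that of Csf3r (0.61 to 1.44), and rose in the WT response (1.32 ± 0.27, adjusted p = 0.0206).

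A list of 10 genes held the TLR4 complex, its adaptors and related receptors. Of these, 1 passed the threshold in Notch2-11cKO against WT and 5 were higher at an unadjusted p below 0.05, in each treatment, with 0 lower. The gene that passed was Tlr2, a receptor of bacterial lipoproteins, which rose by 1.92 ± 0.40 untreated (limma adjusted p = 0.0166) and 1.99 ± 0.33 after SRBC (adjusted p = 0.00411). Tlr4 was at 1.78 ± 0.48 (adjusted p = 0.0597) and 1.16 ± 0.39 (adjusted p = 0.13), and its partner Ly96 at 1.53 ± 0.46 (adjusted p = 0.0958) and 0.91 ± 0.37 (adjusted p = 0.23). The intervals of Tlr2 (1.04 to 2.79 untreated, 1.28 to 2.71 after SRBC) overlapped those of Cd14 (1.69 to 4.60 and 1.72 to 4.09). In the responses to SRBC 0 of the 10 were called by limma, with 3 at an unadjusted p below 0.05 in each genotype, all 3 lower in Notch2-11cKO.

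Among 9 fibronectin receptors, the syndecan Sdc4 (2.25 ± 0.35 untreated, limma adjusted p = 0.00287, and 1.70 ± 0.29 after SRBC, adjusted p = 0.00494) and the hyaluronan receptor Cd44 (1.37 ± 0.24, adjusted p = 0.00632, and 1.07 ± 0.20, adjusted p = 0.00874) rose with Fn1. At an unadjusted p below 0.05, 3 were higher and 3 lower untreated, and 3 higher and 1 lower after SRBC. Of the integrin chains Itgb3 was lower untreated (-1.01 ± 0.19, adjusted p = 0.0093) and Itga4 after SRBC (-1.02 ± 0.24, adjusted p = 0.0307). Itga5, a chain of the classical fibronectin receptor, was at 1.55 ± 0.57 (adjusted p = 0.197) and 1.41 ± 0.47 (adjusted p = 0.121), with every Notch2-11cKO array above every WT array in both treatments. Itgb3 was also lower in the WT response (-0.82 ± 0.17, adjusted p = 0.0248).

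Of 9 measured transcription factors of the monocyte lineage, 3 rose in Notch2-11cKO in each treatment. Zeb2 (2.06 ± 0.19 untreated, limma adjusted p = 8.26e-05, and 1.48 ± 0.15 after SRBC, adjusted p = 0.000189) and Cebpa (2.20 ± 0.25, adjusted p = 0.00036, and 1.55 ± 0.21, adjusted p = 0.00113) rose in both. Irf8, which is also needed by type 1 dendritic cells, rose untreated (1.93 ± 0.36, adjusted p = 0.00957), and Cebpd after SRBC (0.73 ± 0.15, adjusted p = 0.0153). Irf8 rose in the WT response too (1.42 ± 0.33, adjusted p = 0.0393).

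**Figure D4:**
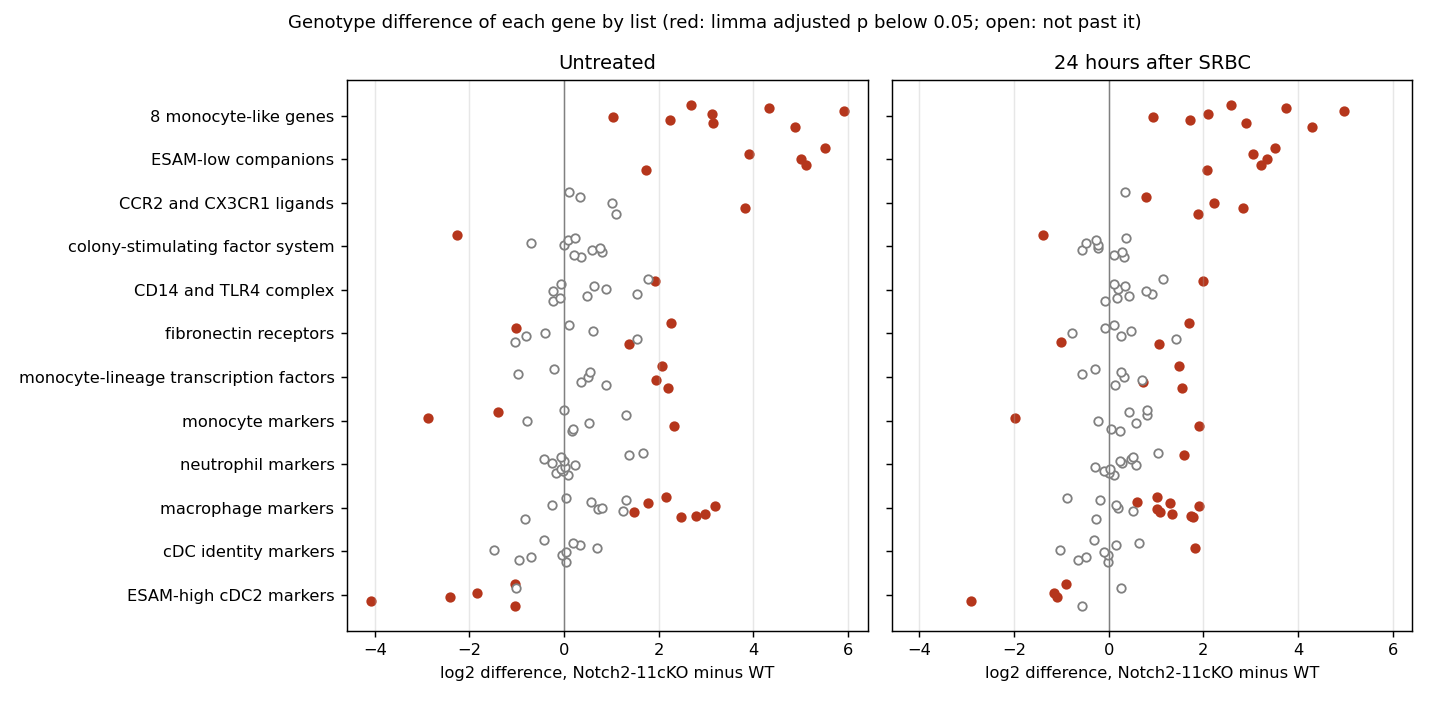
Log2 difference between Notch2-11cKO and WT (horizontal axis) of each gene in 12 lists (vertical axis), untreated (left) and after SRBC (right), red where limma adjusted p was below 0.05. All of the 8 genes and the 5 companions are red and above 0 in both panels, while ESAM-high markers that are red lie below 0.

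Markers of other cell types were measured on the same arrays, since a sort of cDC2 could hold other cells. Of 10 markers of classical dendritic cells, 0 were called by limma between genotypes in untreated mice, with 4 at an unadjusted p below 0.05. Every Notch2-11cKO array lay above every WT array for 3 of the 10 and below for 5, and the mean log2 intensity of the list was 9.95 to 9.99 in WT and 9.69 to 9.79 in Notch2-11cKO. The smallest p was that of the transcription factor gene Irf4 (-1.49 ± 0.39, adjusted p = 0.0528), followed by Itgam (0.69 ± 0.21, adjusted p = 0.105), while Itgax, which encodes CD11c, was at 0.34 (adjusted p = 0.653) and H2-Ab1 at 0.03 (adjusted p = 0.975). After SRBC 1 of the 10, Itgam, was higher in Notch2-11cKO (1.82 ± 0.17, adjusted p = 0.000101). The monocyte list gave 1 of 9 measured markers higher and 2 lower untreated, F13a1 (2.33 ± 0.35, adjusted p = 0.0024), Plac8 (-2.88 ± 0.45, adjusted p = 0.00305) and Treml4 (-1.40 ± 0.32, adjusted p = 0.0278). At an unadjusted limma p below 0.05, 3 were higher and 3 lower untreated. After SRBC the list gave 1 higher and 1 lower by limma, and 3 higher and 1 lower at an unadjusted p below 0.05. Its summed intensity was 2200 to 2449 in untreated WT and 917 to 1062 in untreated Notch2-11cKO, 1526 to 1867 and 864 to 1207 after SRBC. Plac8 was bright in this sum, at log2 10.43 and 10.64 in untreated WT and 6.95 and 8.36 in untreated Notch2-11cKO. The mean log2 intensity of the list, in which each gene counts alike, was 6.09 to 6.18 in untreated WT and 6.05 to 6.10 in untreated Notch2-11cKO, and 5.92 to 5.97 and 6.14 to 6.32 after SRBC. The median log2 difference of the 9 was 0.17 untreated and 0.42 after SRBC, so the sum and the median differ in sign. Ly6c1 and Ly6c2 were not analysed here.

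Most macrophage markers were higher in Notch2-11cKO, as the 8 genes were. In untreated mice every Notch2-11cKO array lay above every WT array for 12 of 15 and below for 2 (22% and 26.8% of all genes). Of 15, 7 rose in untreated Notch2-11cKO, with the smallest p for the complement genes C1qa (2.46 ± 0.21, limma adjusted p = 4.89e-05) and C1qc (2.98 ± 0.34, adjusted p = 0.000368) and the adhesion gene Vcam1 (2.15 ± 0.28, adjusted p = 0.000769), and 9 rose after SRBC. The summed intensity of the list was 2377 to 2478 in untreated WT against 5736 to 6653 in untreated Notch2-11cKO, and 2194 to 3532 against 5310 to 5854 after SRBC. In WT 4 of the 15 also rose after SRBC, when the 8 genes other than Cd14 were not called. The median log2 difference in that WT response was 0.89 for the macrophage list and 0.21 for the 8. Adgre1, a surface marker of macrophages picked here after its values were seen, was not called in either genotype comparison (-0.83, adjusted p = 0.336, and -0.26, adjusted p = 0.744). The part of macrophages in the genotype differences of the 8 was not tested. Among neutrophil markers, 0 of 12 were called by limma in untreated mice, 2 having an unadjusted p below 0.05 (summed intensity 233 to 237 in WT, 234 to 430 in Notch2-11cKO). After SRBC 1 of 12 was called higher in Notch2-11cKO than in WT, S100a8 (1.59 ± 0.41, adjusted p = 0.048), with 3 at an unadjusted p below 0.05. S100a8 also rose with SRBC in WT (2.85 ± 0.46, adjusted p = 0.00658) and in Notch2-11cKO (3.07 ± 0.46, adjusted p = 0.0263), as Cd14 did in WT. The neutrophil list summed to 388 to 499 in WT and 504 to 1156 in Notch2-11cKO after SRBC, and its part in the Cd14 response and in the genotype differences after SRBC was not tested.

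Among markers of type 1 dendritic cells 3 of 6 were higher in untreated Notch2-11cKO (summed intensity 165 to 237 in WT, 554 to 819 in Notch2-11cKO) and 2 of 6 after SRBC. Those called untreated were Cadm1 (1.72 ± 0.22, limma adjusted p = 0.000643), Clec9a (3.00 ± 0.50, adjusted p = 0.0045) and Irf8, given above. The part of type 1 dendritic cells in the genotype differences of the 8 was not tested. Plasmacytoid markers gave 1 of 5 higher untreated and 2 of 5 after SRBC. In both treatments 1 of 5 B cell markers, Ms4a1, was lower in Notch2-11cKO. T cell (4 measured), natural killer (5) and erythroid (2) markers gave 0 calls by limma in either genotype comparison, where 2 natural killer genes had an unadjusted p below 0.05 after SRBC and 0 of the others did. Genes of the stress of tissue digestion fell with SRBC, 9 of 17 in WT and 4 of 17 in Notch2-11cKO, their mean log2 intensity being 10.74 to 10.91 in untreated WT and 8.92 to 9.35 in WT after SRBC. In Notch2-11cKO that mean was 10.54 to 10.63 untreated and 8.95 to 9.84 after SRBC, and its part in the SRBC responses was not tested.

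The genes whose profile over the 10 arrays was most like each of the 8 were found by the root mean square distance of log2 values centred on each gene's mean. This measure takes in the genotype difference, so it is a description. Ccr2 was nearest to the chemokine gene Cxcl13 (0.47) and to Cd226 (0.53), Cx3cr1 to Fgd4 (0.32) and Abcd2 (0.38), and Csf1r to Vat1 (0.15) and the complement gene C1qa (0.19). Csf3r was nearest to Rrbp1 and Adam15 (0.17 each). The lysozymes were close to the chemokine gene Ccl9 (0.19) and the Fc receptor gene Fcgr3 (0.24) for Lyz1, and to the transcription factor gene Mitf (0.18) and Hacd4 (0.26) for Lyz2. Fn1 was nearest to the lipoprotein lipase gene Lpl (0.38) and to Ccl6 (0.54). Cd14 had the least close neighbours, the cytokine gene Il6 and the lectin gene Clec4e (0.58 each). Within the 8, Csf1r and Lyz2 were the closest pair (0.45), followed by Ccr2 and Lyz1 (0.57), and Cd14 was farthest from the rest, its closest being Lyz1 (1.45).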

How the data were processed

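RNA of splenic cDC2 was amplified with an Ambion kit and labelled with biotin, per the labels' protocols, for Affymetrix Mouse Gene 1.0 ST microarrays. The authors deposited linear intensity values of 28853 probe sets on 10 arrays. Their method of normalization is not stated in the sources used here; array medians of 29.5 to 31.7 were close. Precision is limited by the number of arrays. All values were taken to log2. Among probe sets 21789 list exactly 1 symbol, 1621 several and 5443 none, and the brightest probe set was kept for each of 19938 genes, with no filter on dim genes.

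limma 3.58.1 (R 4.3.3; eBayes on lmFit with a trend of variance on level; degrees of freedom 6 residual, 5.25 prior) fitted the means of 4 groups over all arrays, without a replicate block, and gave 5 two-sided comparisons, adjusted by Benjamini-Hochberg over all genes with a threshold of 0.05. The procedure was tested on simulated data with the fitted spread. Of 100 genes changed by 1 log2 unit, 30% were recovered in the interaction and 76% to 86% in the other comparisons. For changes of 2 log2 units these were 92% and 98% to 100%. Genes without a change made up 4.23% to 8.96% of the calls. Alternatives covered normalization (quantile, median centring), an offset of 16, probe set and gene filters, variance models, array weights, a replicate block, a minimum log2 difference of 1 and leaving out arrays. Upstream sequences came from RefSeq (GRCm38.p6).

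Members and lists were chosen with earlier results of these data known. Named were the 8 genes, 2 neighbours per gene and genes of the lists. These were up to 4 per related list and up to 3 per marker list with the smallest p past the threshold, and otherwise the first by p. The plasmacytoid and digestion stress lists, and some comparisons of other lists, are given without gene names. Further names (Cd209a and Csf2rb2 between genotypes, Itgam untreated, Ccl7, Cx3cl1, Tlr4, Ly96, Itga5, H2-Ab1, Itgax, Adgre1) were added after their values were seen.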

Additional observations from a re-analysis of the deposited data

How the results depend on the processing

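Direction held for every genotype difference of the 8 genes under all alternatives. The count of the 8 called higher in untreated Notch2-11cKO was 8 in most settings and 6 to 8 when single arrays were left out (6 without WT untreated replicate 1 or Notch2-11cKO untreated replicate 2). After SRBC it was 8 in every setting except a minimum log2 difference of 1, which left 7 because Csf3r lies at 0.93. In the WT response 1 of the 8 was called; this became 2 with genes at or above the median level, array weights or both arrays that stand apart left out, and 0 with an offset of 16 (Cd14 adjusted p = 0.05) or only the groups compared (0.0599), and ran from 0 to 2 when single arrays were left out. In the Notch2-11cKO response 0 were called; this became 1 with array weights and 2 with both apart arrays left out, and ran from 0 to 1 without single arrays. The interaction went from 0 to 1 with both left out. The cause of these changes was not tested.

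Estimates near 0 changed sign: the Cd14 interaction with the offset (0.076), the Lyz2 interaction with array weights (0.0062) and without both apart arrays (0.0025), and the Cx3cr1 WT response without both (-0.0034). When single arrays were left out the ranges were -0.87 to 0.24 (Cd14 interaction), -0.31 to 0.13 (Csf3r interaction), -0.27 to 0.094 (Lyz2 interaction), -0.22 to 0.14 (Lyz2 WT response) and -0.0034 to 0.23 (Cx3cr1 WT response).

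Counts over all genes ranged widely: 1019 in untreated mice (418 without WT untreated replicate 1 to 1996 without both apart arrays), 1061 after SRBC (578 with the minimum difference to 2364 without both), 756 in the WT response (101 without WT untreated replicate 1 to 2300), 61 in the Notch2-11cKO response (2 without Notch2-11cKO untreated replicate 1 to 398) and 4 in the interaction (0 without WT untreated replicate 1 to 604).

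Same-numbered arrays deviated together unevenly (r from -0.171 to 0.375). Between genotypes after SRBC r was 0.375, -0.171 and 0.324 for replicates 1, 2 and 3, and 4 of 6 SRBC arrays correlated best with their own number. These values do not decide whether the numbers pair samples. The labels state no pairing, so the main fit had no replicate block. With the replicate block 1 of the 8 was called in the Notch2-11cKO response (Cd14, 1.97, adjusted p = 0.0337), and the counts over all genes were 1175, 1319, 715, 50 and 6 in the order above.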
